A study of Mus musculus with 9 samples.

Results

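The data cover 10 transcription factors that set or maintain endothelial identity, namely the ETS factors Erg, Fli1 and Ets1, the SOXF factors Sox7, Sox17 and Sox18, the haemato-endothelial pair Tal1 and Gata2, and the forkhead factors Foxo1 and Foxf1. The genes were chosen by name, and every probe set that names one of them alone was taken. This gave 22 of the 34945 probe sets of single genes on the array, and 10 of 18193 genes. No member probe set was left out for a low value. RNA was measured on Affymetrix mouse genome arrays in endothelial cells (ECs) sorted from whole lungs of NSG mice, a strain without functional lymphocytes that accepts human tumors. The sort kept CD31+ cells and set aside leukocytes (CD45, CD11b), epithelium (CD326), mesenchymal cells (CD140a and CD140b) and GFP+ cells, and ECs near nodules and ECs of the remaining lung were pooled. There were 3 groups of 3 biological replicates. The metastasis B20 group had received MDA-MB-231-LM2 cells, a lung-seeking human breast cancer line, through the tail vein at 6 to 8 weeks of age. These mice were then given B20.4.1.1, a blocking antibody against VEGFA, in repeated intraperitoneal doses of 10 mg/kg, and the lungs were taken on day 21. The metastasis IgG group had received the same cancer cells and control IgG, with lungs taken on the same day. The healthy IgG group comprised mice of matched age without cancer cells, also given control IgG. Metastatic mice had been chosen for a comparable load.

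ETS factors bind sites with a GGAA core, which are found in the regulatory regions of most genes that define ECs, and ERG and FLI1 keep mature ECs in their differentiated state. SOXF proteins act in arterial and lymphatic specification and in the response to VEGF. TAL1 and GATA2 sit together in complexes on joined E-box and GATA sites in ECs and blood cells. FOXO1 is held out of the nucleus by AKT signaling and restrains EC growth when active, and FOXF1 is required for the pulmonary capillary bed in mice and humans.

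The label of the sorted cells was checked with 10 endothelial markers, including Pecam1, Cdh5, Kdr and Cldn5. Their mean level was between 12.8 and 13.0 log2 units in all 9 arrays, where each array's median over all probe sets was 8.31. Only Emcn among them was called between groups. Markers of other cell types and cell division genes also differed between groups. Whether other cells or the ECs themselves held these transcripts was not tested. The mean level of 18 macrophage and monocyte markers was 9.29 to 9.62 in metastasis B20 arrays, 9.29 to 9.46 in metastasis IgG arrays and 8.38 to 8.68 in healthy IgG arrays, and 11 of the 18 were higher in metastasis IgG than in healthy IgG (7 to 13 when an array was left out). The 14 measured cell division genes had mean levels of 9.49 to 9.79 in metastasis B20, 9.85 to 10.29 in metastasis IgG and 8.49 to 8.85 in healthy IgG arrays, and 10 of 14 were higher in metastasis IgG than in healthy IgG. In metastasis IgG against healthy IgG, 4 of 12 fibroblast markers were called (Col1a1 at 1.48 and 2 others higher, Inmt lower at -1.06), as were 2 of 10 pericyte and smooth muscle markers (Pdgfrb at 1.18 and Rgs5 at 1.06, 0 to 2 when an array was left out) and 3 of 13 epithelial markers (Sftpd, Sftpb and Pdpn at 0.61 to 1.18, 0 to 4 when an array was left out). Of 6 neutrophil, 5 erythroid and 6 lymphatic markers 1 of each list was higher, the lymphatic one being Pdpn, already counted among the epithelial markers. Of 9 lymphocyte markers limma called 0 and 1 had an unadjusted p under 0.05. In metastasis B20 against healthy IgG, 10 of 18 macrophage and monocyte markers and 9 of 14 cell division genes were higher. Of the fibroblast markers 3 were higher and 1 lower (Inmt), and of the erythroid markers 1 was higher (Slc4a1) and 1 lower (Alas2). Slc4a1 differed by 1.82 by that probe set, while its other probe sets gave -0.20 to -0.05. Further calls, all higher, were 1 pericyte, 3 neutrophil and 1 megakaryocyte marker (Itga2b), and Pdpn, which is on the epithelial and lymphatic lists. The mean level of the fibroblast markers was 9.67 to 9.93 in metastasis B20, 9.62 to 9.97 in metastasis IgG and 9.18 to 10.02 in healthy IgG arrays. The lowest correlation between arrays of a group was 0.988. Of the controls for RNA integrity, the actin probe set of the 3' end minus that of the 5' end, was 0.53 to 0.62 in metastasis B20, 0.49 to 0.56 in metastasis IgG and 0.61 to 0.62 in healthy IgG arrays, without overlap between metastasis IgG and healthy IgG. The same difference for Gapdh was 0.06 to 0.19 in metastasis B20, -0.03 to 0.10 in metastasis IgG and 0.10 to 0.18 in healthy IgG arrays, where all groups overlapped. The part of these markers and of RNA integrity in the results below was not tested. In sorted bulk cells, fewer cells of a type and less RNA per cell cannot be told apart.

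In metastasis IgG against healthy IgG, the differences of the 22 member probe sets had a median size near that of the whole array. There 1 probe set of 1 factor, Sox7, was called, and no member was called in the other comparisons. Between metastasis IgG and healthy IgG, 8 of the 10 leading probe sets (the probe set with the highest mean of each gene) lay below 0 and 2 above it. Their median difference was -0.07 log2 units, beside -0.0011 over all 18193 genes. The median size of a difference was 0.09 log2 units in the 10 leading probe sets and 0.12 over all genes. In all 22 member probe sets it was 0.127, beside 0.125 over all 34945 probe sets. Of the 22 member probe sets, 1 had an adjusted p under 0.05 (a call in limma, after Benjamini and Hochberg), while 7.41% of all 34945 probe sets were called (4.43% higher and 2.98% lower in metastasis IgG). At an unadjusted p under 0.05 the counts were 5 of 22 member probe sets and 21.9% of all probe sets. The groups did not overlap in 6 of 22 member probe sets, 2 higher and 4 lower in metastasis IgG, and in 27.5% of all probe sets (14.1% higher and 13.4% lower). These counts are close to what the shares of the whole array give for 22 probe sets. The widest reach of a 95% interval among the leading probe sets was -0.55 for Tal1 and 0.48 for Fli1. Among all 22 member probe sets it was -0.68 for Erg 1425370_a_at and 0.72 for Fli1 1422024_at. The text gives differences as log2 of metastasis over healthy or of B20 over IgG, with the standard error (SE) of the difference.

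**Figure D1:**
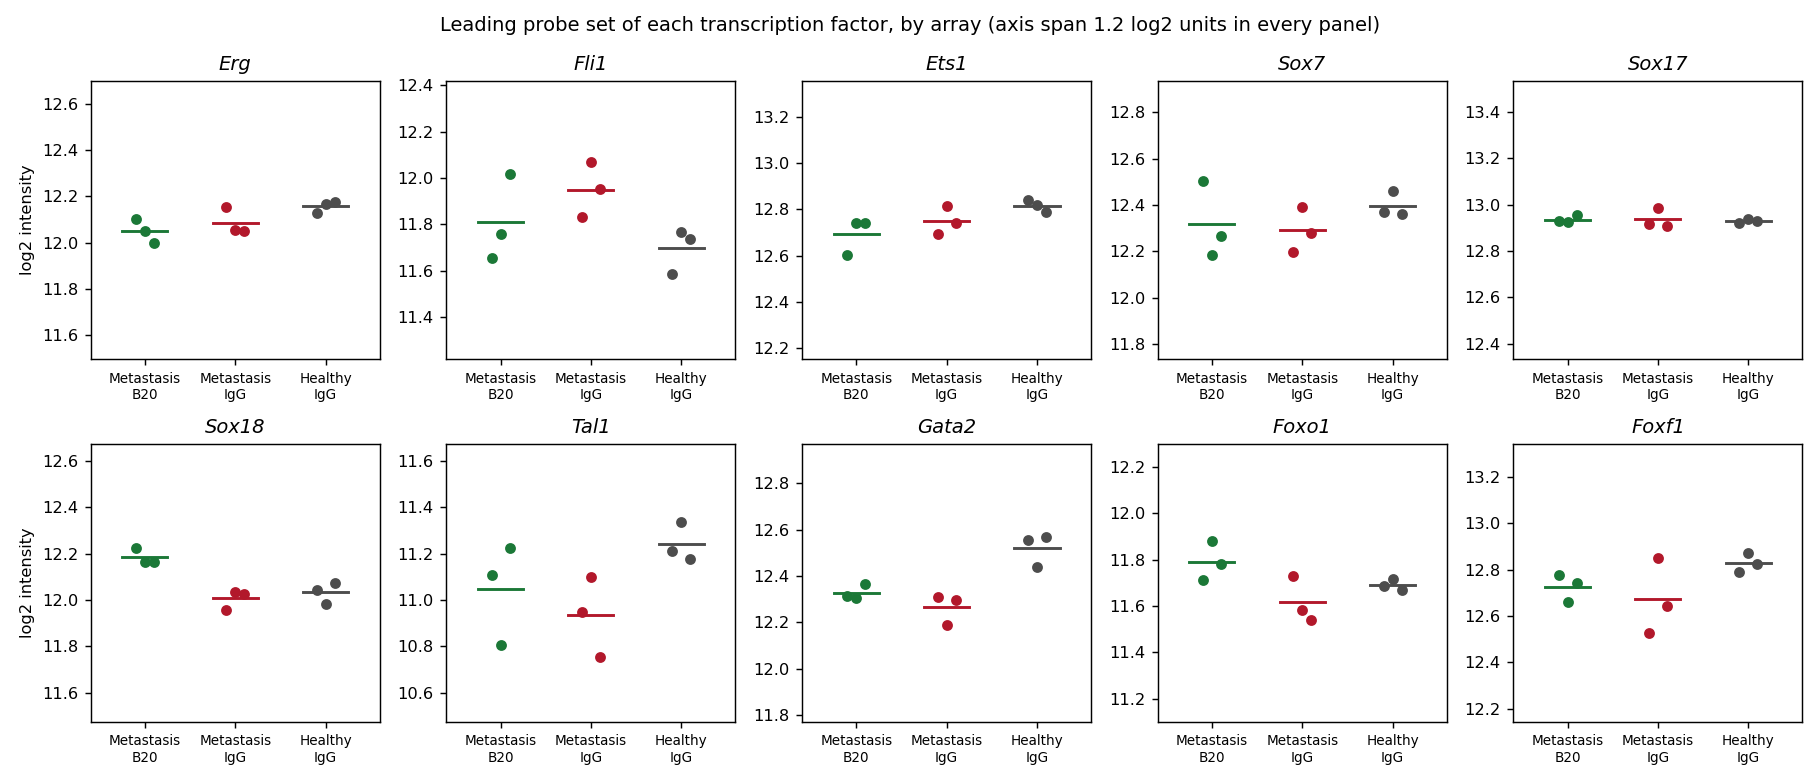
Log2 intensity (vertical axis) of the leading probe set of each factor in metastasis B20, metastasis IgG and healthy IgG ECs, with 1 point per array, a bar at the mean of 3 arrays and the same axis span in each panel. The healthy IgG arrays lie above all metastasis IgG arrays for Tal1 and Gata2 and below them for Fli1, and the points of Sox17 stay within 12.91 to 12.99.

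Among the ETS factors, Fli1 was the one whose leading probe set lay higher in metastasis. Fli1 measured 11.66, 11.76 and 12.02 log2 units in metastasis B20, 11.83, 12.07 and 11.95 in metastasis IgG, and 11.59, 11.77 and 11.73 in healthy IgG ECs. Every metastasis IgG array was above every healthy array, whereas the B20 arrays overlapped with both groups. The difference of metastasis IgG from healthy IgG was 0.25 ± 0.10 (SE, n = 3 each, 95% interval 0.03 to 0.48, limma adjusted p = 0.17), and did not pass. The second Fli1 probe set (1422024_at) gave 0.34 ± 0.17, with overlapping arrays and an adjusted p of 0.294 in limma. The leading probe set differed by 0.12 ± 0.11 between metastasis B20 and healthy IgG (limma adjusted p = 0.639). FLI1 is also an activator in blood cells. The mean level of the macrophage markers given above was higher than in healthy IgG arrays in both metastasis groups, and their part in the Fli1 values was not tested.

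Erg, the ETS factor most restricted to ECs among blood vessel cells, measured 12.10, 12.05 and 12.00 in metastasis B20, 12.16, 12.05 and 12.05 in metastasis IgG, and 12.13, 12.17 and 12.18 in healthy IgG ECs. All 9 arrays lay between 12.00 and 12.18. The difference of metastasis IgG from healthy IgG was -0.07 ± 0.08 (95% interval -0.25 to 0.11, limma adjusted p = 0.675), and the B20 arrays, all below the healthy ones, gave -0.11 ± 0.08 (adjusted p = 0.518). The second Erg probe set (1425370_a_at) measured 9.64, 9.73 and 9.54 in metastasis B20, 10.03, 9.59 and 9.28 in metastasis IgG, and 9.90, 9.92 and 9.98 in healthy IgG ECs. Its metastasis IgG arrays were the most scattered of any member, with an SD of 0.38, and reached above and below the healthy arrays. With B20, its difference from healthy IgG was -0.30 ± 0.09 (95% interval -0.50 to -0.10, limma adjusted p = 0.0893), which did not pass.

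Ets1, an ETS factor of angiogenic ECs and lymphocytes, had 4 probe sets. The leading one measured 12.60, 12.74 and 12.74 in metastasis B20, 12.70, 12.81 and 12.74 in metastasis IgG, and 12.84, 12.82 and 12.79 in healthy IgG ECs. Healthy arrays were the highest on average, and those of metastasis IgG overlapped with them. Between metastasis IgG and healthy IgG the leading probe set differed by -0.07 ± 0.08 and the other 3 by -0.05 to 0.04, with limma adjusted p between 0.701 and 0.883.

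The SOXF genes held the single call among the members. Sox7, the SOXF member linked to early EC specification, had a leading probe set (1416564_at) with 12.50, 12.18 and 12.27 in metastasis B20, 12.20, 12.39 and 12.28 in metastasis IgG, and 12.37, 12.46 and 12.36 in healthy IgG ECs. These groups overlapped, and metastasis IgG differed from healthy IgG by -0.11 ± 0.09 (limma adjusted p = 0.537). The second probe set (1432495_at) measured 9.30, 9.18 and 9.15 in metastasis B20, 9.12, 9.03 and 9.16 in metastasis IgG, and 9.42, 9.40 and 9.49 in healthy IgG ECs. All healthy arrays were above all arrays of both metastasis groups. It fell by 0.33 ± 0.08 log2 units in metastasis IgG (0.79-fold, 95% interval -0.52 to -0.15, limma adjusted p = 0.0457), and the B20 difference from healthy IgG was -0.23 ± 0.08 (adjusted p = 0.177), not a call. The metastasis IgG call was lost when any 1 of the 6 arrays was left out, whichever it was, with adjusted p between 0.0673 and 0.152 and a difference of -0.36 to -0.30. It was lost as well with all probe sets of the table (adjusted p = 0.0552), without probe sets with shared probes (0.0528), with trend and robust settings (0.0537) and with the replicate number as a block (0.0824).

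Sox17, which is concentrated in arterial ECs, gave unlike readings from its probe sets. The leading one (1429177_x_at) measured 12.93, 12.92 and 12.95 in metastasis B20, 12.91, 12.99 and 12.91 in metastasis IgG, and 12.92, 12.94 and 12.93 in healthy IgG ECs. It was level across groups, with a difference of 0.01 ± 0.08 between metastasis IgG and healthy IgG (95% interval -0.17 to 0.19). The suffix x marks probes that may also bind other transcripts. The other probe set (1421657_a_at) measured 10.70, 10.86 and 10.42 in metastasis B20, 10.71, 10.59 and 10.44 in metastasis IgG, and 10.27, 9.96 and 10.24 in healthy IgG ECs. All 6 metastasis arrays were above all 3 healthy arrays. The differences from healthy IgG were 0.43 ± 0.11 for metastasis IgG (1.34-fold, 95% interval 0.16 to 0.69, limma adjusted p = 0.0621) and 0.50 ± 0.13 for metastasis B20 (1.41-fold, 95% interval 0.20 to 0.81, adjusted p = 0.0707), and neither passed. Without metastasis B20 replicate 3, the B20 difference was 0.62 with an adjusted p of 0.044 in limma. With a filter that kept probe sets averaging at least 8 log2 units, chosen after seeing the data, both differences passed (adjusted p = 0.0393 for IgG and 0.0454 for B20). They also passed under the planned trend and robust settings (limma adjusted p = 0.0247 for IgG and 0.0256 for B20).

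Sox18, the SOXF factor of lymphatic and angiogenic vessels, had 1 probe set with 12.22, 12.16 and 12.16 in metastasis B20, 11.96, 12.04 and 12.03 in metastasis IgG, and 12.04, 11.98 and 12.07 in healthy IgG ECs. The 3 B20 arrays were the highest of the 9, and the other groups overlapped. Metastasis B20 differed from metastasis IgG by 0.18 ± 0.08 (1.13-fold, 95% interval -0.02 to 0.37, unadjusted p = 0.0667, adjusted p = 0.685 in limma). It differed from healthy IgG by 0.15 ± 0.08 (adjusted p = 0.346). No Sox18 difference passed.

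Tal1 and Gata2 were the members whose leading probe sets lay lowest in metastasis IgG relative to healthy IgG. Tal1, a basic helix-loop-helix factor needed for haemogenic endothelium, had 1 probe set with 11.11, 10.81 and 11.22 in metastasis B20, 10.95, 11.10 and 10.76 in metastasis IgG, and 11.21, 11.34 and 11.18 in healthy IgG ECs. All metastasis IgG arrays were below all healthy arrays, and a single B20 array reached into the healthy range. The difference of metastasis IgG from healthy IgG was -0.31 ± 0.11 (0.81-fold, 95% interval -0.55 to -0.06, limma adjusted p = 0.136), and that of metastasis B20 from healthy IgG was -0.20 ± 0.12 (adjusted p = 0.417).

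Gata2, a zinc finger factor of ECs, blood stem cells and mast cells, measured 12.31, 12.30 and 12.37 in metastasis B20, 12.31, 12.19 and 12.30 in metastasis IgG, and 12.55, 12.44 and 12.57 in healthy IgG ECs by its leading probe set (1450333_a_at). Healthy arrays stood above all 6 metastasis arrays. The difference of metastasis IgG from healthy IgG was -0.26 ± 0.08 (0.84-fold, 95% interval -0.45 to -0.06, limma adjusted p = 0.118), and that of metastasis B20 was -0.19 ± 0.08 (95% interval -0.38 to -0.01, adjusted p = 0.231). Neither passed. The variance settings of the fit decided these calls, since with a trend and robust estimation limma gave adjusted p of 0.0146 for metastasis IgG and 0.0449 for metastasis B20. The second Gata2 probe set (1428816_a_at) measured 11.07, 11.01 and 11.17 in metastasis B20, 11.04, 10.93 and 11.07 in metastasis IgG, and 11.25, 11.14 and 11.23 in healthy IgG ECs. It lay in the same direction, with all metastasis IgG arrays below the healthy ones and a difference of -0.19 ± 0.08 (limma adjusted p = 0.235). Mast cells and megakaryocytes also transcribe Gata2 and Tal1. None of 9 mast cell and basophil markers was called, and their mean level was 7.20 to 7.36 in metastasis B20, 7.31 to 7.35 in metastasis IgG and 7.25 to 7.36 in healthy IgG arrays. Of 8 megakaryocyte and platelet markers, 1 was lower in metastasis IgG than in healthy IgG (Ppbp, -0.54). In metastasis B20 against healthy IgG, 1 was higher (Itga2b, 0.52, limma adjusted p = 0.00698), a call that held in 6 of 6 fits with an array left out. Mean levels of the list were 8.31 to 8.38 in metastasis B20, 8.08 to 8.25 in metastasis IgG and 8.29 to 8.41 in healthy IgG arrays, without overlap between metastasis IgG and healthy IgG. In that comparison 3 of 9 mast cell and basophil markers and 4 of 8 megakaryocyte and platelet markers had an unadjusted p under 0.05 in limma, beside 21.9% of all probe sets. The part of these cells in the Tal1 and Gata2 values was not tested.

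The promoters of Tal1 and Gata2 are shown because the leading probe sets of both genes lay lower in metastasis IgG without overlap, and GATA and ETS cores are marked as the letters that GATA2 and the ETS members bind. RefSeq windows on GRCm38.p6 were given for 4 of the 10 members (Erg, Tal1, Gata2 and Foxo1) with 8 start sites, and each line below holds the 250 bases before a start, 5′ to 3′ on the gene's own strand, which is the plus strand for both genes. Capitals mark the ETS core GGAA and the GATA core GATAA on either strand (TTCC and TTATC when read on the other one), which do not overlap here. The windows are chr4:115056176-115056425 and chr4:115057561-115057810 for Tal1, and chr6:88193641-88193890 and chr6:88198414-88198663 for Gata2.
Tal1 start 1: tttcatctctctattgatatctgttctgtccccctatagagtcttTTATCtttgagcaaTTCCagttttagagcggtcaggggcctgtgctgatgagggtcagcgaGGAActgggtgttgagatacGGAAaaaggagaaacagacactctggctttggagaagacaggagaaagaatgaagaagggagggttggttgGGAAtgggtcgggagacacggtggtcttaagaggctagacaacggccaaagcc
Tal1 start 2: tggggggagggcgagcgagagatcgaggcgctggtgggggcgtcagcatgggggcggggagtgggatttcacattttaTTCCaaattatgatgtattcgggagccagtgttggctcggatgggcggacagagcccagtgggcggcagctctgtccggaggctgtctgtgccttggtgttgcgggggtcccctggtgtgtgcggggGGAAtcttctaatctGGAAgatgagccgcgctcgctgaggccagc
Gata2 start 1: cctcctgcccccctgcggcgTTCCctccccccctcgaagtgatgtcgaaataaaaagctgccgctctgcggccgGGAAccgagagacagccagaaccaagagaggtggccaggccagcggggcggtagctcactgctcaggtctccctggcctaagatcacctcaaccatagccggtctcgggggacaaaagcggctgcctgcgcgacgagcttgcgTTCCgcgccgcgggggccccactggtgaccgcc
Gata2 start 2: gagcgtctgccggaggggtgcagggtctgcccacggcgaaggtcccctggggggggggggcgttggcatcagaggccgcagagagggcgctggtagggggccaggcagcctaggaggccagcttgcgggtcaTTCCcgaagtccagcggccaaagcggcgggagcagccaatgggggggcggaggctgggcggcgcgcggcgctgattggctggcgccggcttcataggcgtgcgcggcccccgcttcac
The first Tal1 window held 4 ETS cores and 1 GATA core, the second 3 ETS cores, and the Gata2 windows 3 and 1 ETS cores with no GATA core. Over all 32851 promoter windows of this length, 93.4% held GGAA and 22.6% held GATAA on either strand, and among the 8 member windows 7 and 2 did. An ETS core is thus the usual state of a mouse promoter and marks nothing particular to these genes. The E-box CANNTG was found in 2 of 8 member windows and 66.2% of all, the SOX core ACAAT in 1 of 8 and 27.7%, and the forkhead letters GTAAACA in 0 of 8 and 3.17%. These are matches of letters only.

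Of the forkhead factors, Foxo1 had 4 probe sets. The leading one (1416982_at) measured 11.71, 11.88 and 11.78 in metastasis B20, 11.73, 11.58 and 11.54 in metastasis IgG, and 11.69, 11.72 and 11.67 in healthy IgG ECs. B20 arrays averaged highest, but each pair of groups overlapped. The difference of metastasis IgG from healthy IgG was -0.07 ± 0.09 (limma adjusted p = 0.687), and that of metastasis B20 from metastasis IgG was 0.17 ± 0.10 (95% interval -0.05 to 0.39, adjusted p = 0.753). The other 3 Foxo1 probe sets differed by -0.13 to -0.01 between metastasis IgG and healthy IgG and by -0.04 to 0.15 between metastasis B20 and metastasis IgG. Array values report the transcript, while FOXO1 activity depends on where the protein is held in the cell.

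Foxf1, the lung mesenchymal and capillary forkhead factor, measured 12.78, 12.66 and 12.74 in metastasis B20, 12.53, 12.85 and 12.64 in metastasis IgG, and 12.79, 12.87 and 12.83 in healthy IgG ECs by its leading probe set (1434939_at). Metastasis IgG replicate 2 lay within the healthy range and the other metastasis arrays below it. The difference of metastasis IgG from healthy IgG was -0.15 ± 0.10 (95% interval -0.39 to 0.08, limma adjusted p = 0.428), and that of the second probe set (1423013_at) was -0.22 ± 0.10 (adjusted p = 0.253). Fibroblast and pericyte markers, given above, were called in the same comparison, and their part in the Foxf1 values was not tested. Fendrr, the long noncoding RNA whose gene is the neighbor of Foxf1 in the RefSeq table, was called lower, with a mean of 11.95 in metastasis B20, 11.92 in metastasis IgG and 12.35 in healthy IgG ECs. Its difference from healthy IgG was -0.43 ± 0.09 for metastasis IgG (limma adjusted p = 0.0261) and -0.40 ± 0.09 for metastasis B20 (adjusted p = 0.0359). When 1 array was left out, the first call held in 2 of 6 fits, without healthy IgG replicate 1 and without metastasis IgG replicate 2, with adjusted p up to 0.0977, and the second in 0 of 6.

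**Figure D2:**
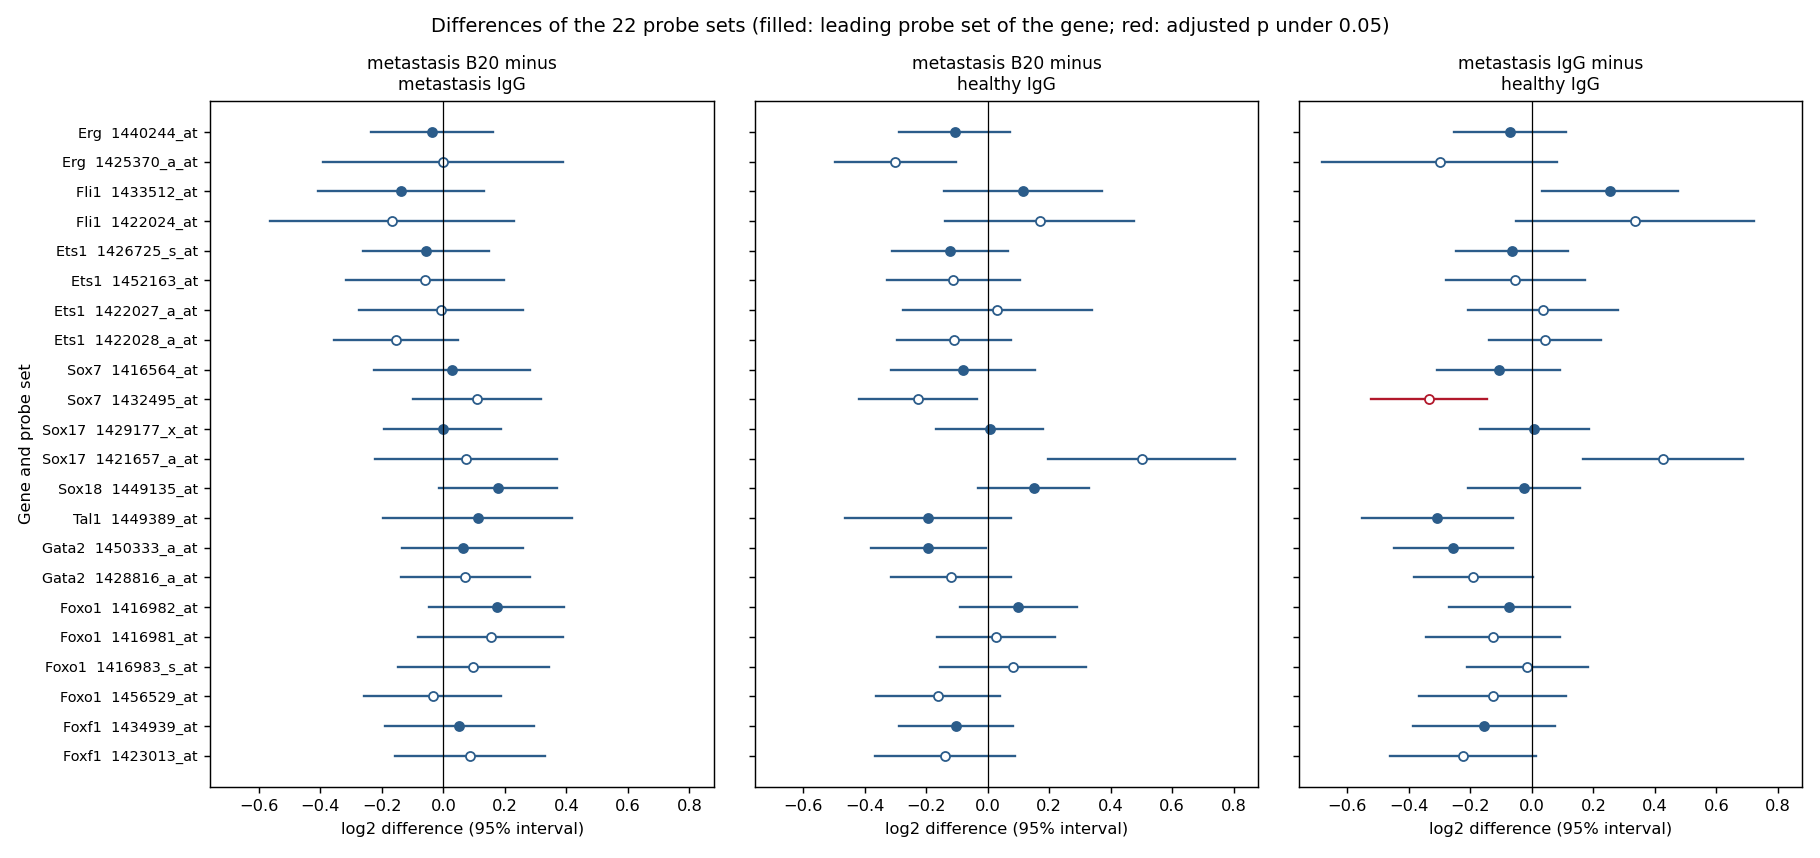
Log2 difference (horizontal axis) with its 95% interval from limma for each of the 22 member probe sets in 3 comparisons of 3 arrays against 3, with leading probe sets filled and a call in red. The single call is the second Sox7 probe set at -0.33 in metastasis IgG against healthy IgG, and intervals of most probe sets include 0.

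No difference of a factor between ECs of VEGFA-blocked and control-treated metastatic lungs passed. Between metastasis B20 and metastasis IgG, 0 of 22 member probe sets were called in limma and 0 had an unadjusted p under 0.05. Over the array 0% of probe sets were called, and 7.63% had an unadjusted p under 0.05. Of the leading probe sets, 6 lay above 0 and 4 below, with a median difference of 0.04 beside -0.01 over all genes. Sox18 and the fourth Ets1 probe set were the members without overlap between these groups, 1 higher and 1 lower with B20 among 22, beside 12.7% of all probe sets (6.13% higher and 6.58% lower). That Ets1 probe set (1422028_a_at) measured 9.54, 9.51 and 9.40 in metastasis B20 and 9.62, 9.70 and 9.59 in metastasis IgG, a difference of -0.15 ± 0.09 (limma adjusted p = 0.758). The intervals of the leading probe sets spanned -0.41 to 0.42, and those of all 22 member probe sets -0.56 to 0.42. Cell division genes lay lower with B20, with a median of -0.55 and 10 of 14 at an unadjusted p under 0.05, but limma called 0 of them.

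Metastasis B20 and healthy IgG ECs were compared as well. Here 0 of 22 member probe sets were called in limma, beside 5.41% of all probe sets (3.32% higher and 2.09% lower), and 4 of 22 had an unadjusted p under 0.05, beside 20.2%. In 10 of 22 member probe sets, 2 higher and 8 lower with B20, the groups did not overlap, beside 25.7% of all probe sets (12.6% higher and 13.1% lower). The 8 lower ones were both probe sets of Erg, a pair of Ets1 probe sets, the second of Sox7, the leading ones of Gata2 and Foxf1, and 1 of Foxo1, with differences from -0.30 to -0.10. The median difference of the leading probe sets was -0.09, beside -0.01 over all genes, and the median size of their differences was 0.111, beside 0.114. This comparison shares its 3 healthy arrays with that of metastasis IgG and its 3 B20 arrays with that of B20 against IgG, so the 3 sets of values are not independent.

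Several relatives of the factors were called between metastatic and healthy ECs. No leading probe set of the 10 was called, so the size of the called relatives beside them follows in part from the choice of called genes. The lists of relatives, partners, targets and markers were written with earlier results of these data known, each gene was read from its leading probe set, and 7.93% of all 18193 genes were called between metastasis IgG and healthy IgG (5.03% higher and 2.9% lower) and 5.82% between metastasis B20 and healthy IgG (3.81% higher and 2.01% lower). Among 13 other ETS genes, 2 were higher in metastasis IgG than in healthy IgG. Elf4, an ETS factor that restrains T cell proliferation, had means of 10.83 and 10.22 and a difference of 0.61 ± 0.11 (limma adjusted p = 0.0169), a call that was lost without healthy IgG replicate 1 or 3 (adjusted p up to 0.0603). Etv5, a target of fibroblast growth factor signaling, differed by 0.57 ± 0.11 (adjusted p = 0.0215), while its other probe sets gave -0.07 to 0.03, and its call held in 2 of 6 fits with an array left out, those without healthy IgG replicate 2 or metastasis IgG replicate 2. Between metastasis B20 and healthy IgG, limma called 0 of 13 ETS relatives and 3 had an unadjusted p under 0.05.

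Of 19 measured SOX, GATA and FOX relatives, 4 were lower in metastasis IgG than in healthy IgG and 0 higher. Sox11, a SOXC factor, had means of 8.69 in metastasis B20, 8.68 in metastasis IgG and 10.02 in healthy IgG ECs. It fell by 1.34 ± 0.11 log2 units in metastasis IgG (limma adjusted p = 0.000404) and by 1.34 ± 0.17 in metastasis B20 (adjusted p = 0.00328), and its other probe sets gave -1.17 to -0.64 in metastasis IgG. Gata3, the GATA factor of T cells and of some ECs, fell by 0.69 ± 0.09 in metastasis IgG (adjusted p = 0.00351) and by 0.60 ± 0.10 in metastasis B20 (adjusted p = 0.0127). Foxc2, a regulator of lymphatic valves, had means of 6.77 in metastasis B20, 6.75 in metastasis IgG and 7.42 in healthy IgG ECs, all below the array median of 8.31 in a table without detection calls. It fell by 0.66 ± 0.12 in metastasis IgG (limma adjusted p = 0.0146) and by 0.64 ± 0.08 in metastasis B20 (adjusted p = 0.00378). Foxc1, its paralog, was the fourth, at -0.46 and -0.57. In metastasis IgG, the calls of Sox11 and Gata3 held in 6 of 6 fits with an array left out, that of Foxc2 in 3 and that of Foxc1 in 1. Foxc2 was not called without healthy IgG replicate 1 or 2 or metastasis IgG replicate 1 (adjusted p up to 0.0587), and Foxc1 was called only without healthy IgG replicate 3 (adjusted p up to 0.0973 in the others). In metastasis B20 the Gata3 call was lost without B20 replicate 2 (adjusted p = 0.0507), and the Foxc1 call in every such fit. Whether these genes differed from the 10 factors was not tested.

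Of 10 TAL1 partners, limma called 0 between any pair of groups. Between metastasis IgG and healthy IgG 5 had an unadjusted p under 0.05, beside 21.9% of all probe sets. Lmo2, the bridge between TAL1 and GATA factors, had means of 12.40 in metastasis IgG and 12.68 in healthy IgG ECs and differed by -0.28 ± 0.10 (limma adjusted p = 0.136), with no overlap. Cbfa2t3, a corepressor of the complex, differed by -0.33 ± 0.09 (adjusted p = 0.0604) and Lyl1, the TAL1 paralog, by 0.23 ± 0.09 (adjusted p = 0.191). The median of the list was -0.15, beside -0.0011 over all genes.

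Of 29 other endothelial transcription factors, 6 were higher and 3 lower in metastasis IgG than in healthy IgG, and 5 higher and 2 lower in metastasis B20. Nr2f2, the venous identity factor, had means of 11.05 in metastasis B20, 11.15 in metastasis IgG and 10.05 in healthy IgG ECs. It rose by 1.10 ± 0.08 in metastasis IgG (limma adjusted p = 0.000268) and by 1.00 ± 0.11 in metastasis B20 (adjusted p = 0.00161), although its other probe sets ranged from -0.43 to 0.53 in metastasis IgG. Hey2, a Notch target of arterial ECs, had means of 7.55 in metastasis B20 and 7.66 in metastasis IgG, below the array median, and 8.62 in healthy IgG ECs. It fell by 0.96 ± 0.14 in metastasis IgG (limma adjusted p = 0.006) and by 1.08 ± 0.15 in metastasis B20 (adjusted p = 0.00495). Hif1a, the hypoxia factor, rose by 0.85 ± 0.08 in metastasis IgG (limma adjusted p = 0.000678) and by 0.84 ± 0.09 in metastasis B20 (adjusted p = 0.00152). These 6 calls held in each fit with an array left out. The whole list's count in metastasis IgG, 9, was 4 to 9 in those fits.

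**Figure D3:**
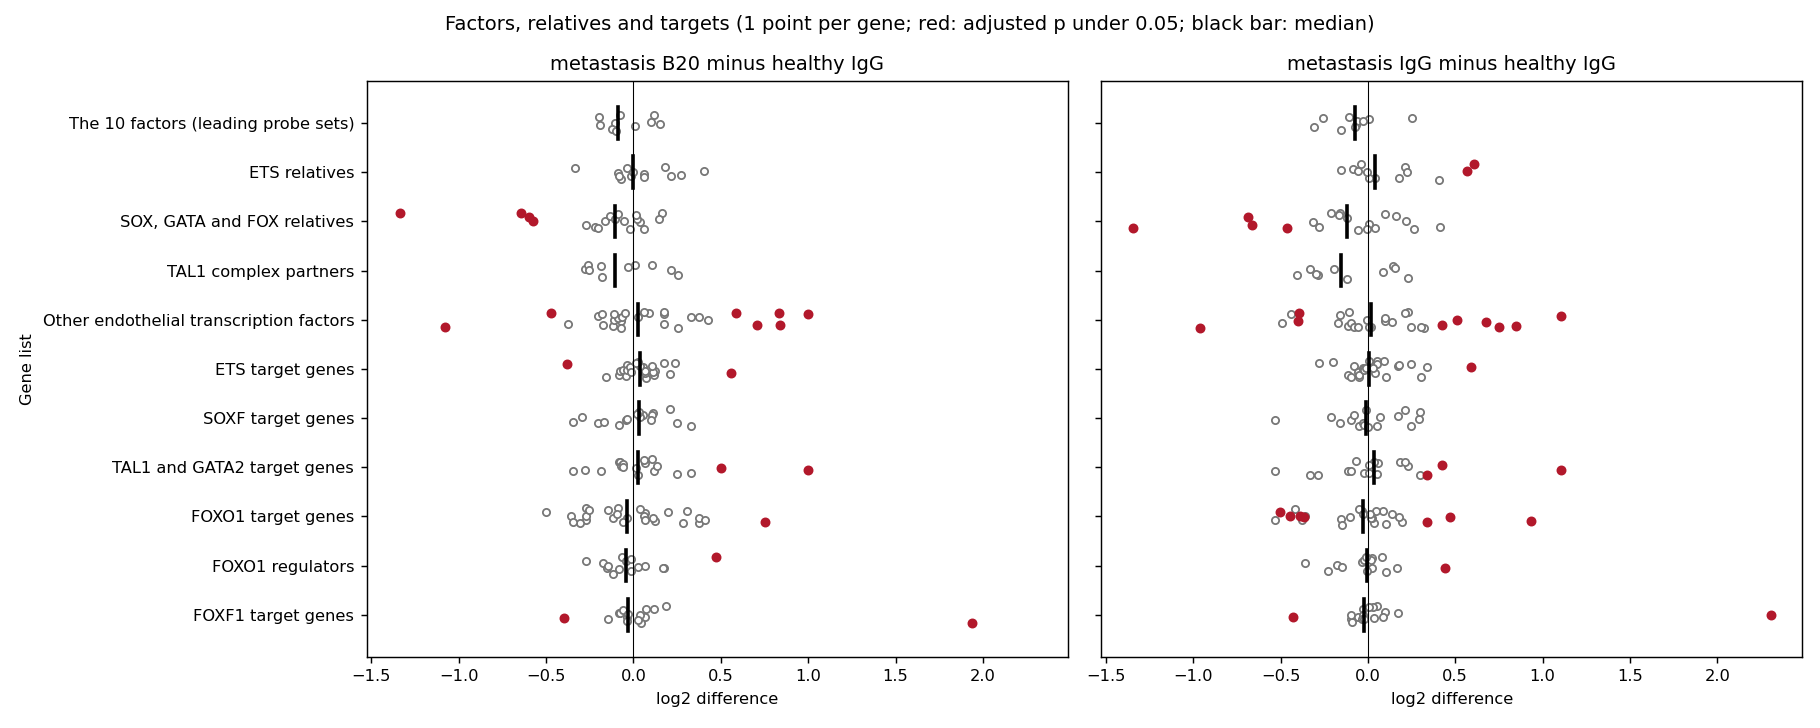
Log2 difference (horizontal axis) from healthy IgG for the 10 factors and for lists of relatives, partners, regulators and targets (rows), with 1 point per gene at its leading probe set, calls in red and a black bar at the list's median. The leading probe sets of the 10 factors lie between -0.31 and 0.25 in metastasis IgG with no call. Sox11, Nr2f2, Hey2, Hif1a, Bnip3 and Ntrk2, named here because they were called, lie further out. Other probe sets of the factors are not drawn.

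Of 25 ETS target genes, which include Cdh5, 1 was higher in metastasis IgG than in healthy IgG, beside 7.93% of all genes called. This was Apln, an APJ ligand of tip cells, which rose by 0.59 ± 0.11 log2 units (limma adjusted p = 0.0136), and whose difference between metastasis B20 and metastasis IgG was -0.35 with an unadjusted p of 0.00943 and an adjusted p of 0.516. In metastasis B20 against healthy IgG, Hdac6, a cytoplasmic deacetylase, rose by 0.56 ± 0.08 (adjusted p = 0.00739) and Eng, the coreceptor endoglin, fell by 0.38 ± 0.09 (adjusted p = 0.0454), the second call being lost without any 1 of the 6 arrays. Of 17 SOXF target genes, limma called 0 in either comparison with healthy ECs, with 5 at an unadjusted p under 0.05 in metastasis IgG and 4 in metastasis B20, beside 21.9% and 20.2% of all probe sets. The smallest p of that list between metastasis IgG and healthy IgG was that of Ccnd1, the cyclin of early G1, at 0.29 ± 0.08 (limma adjusted p = 0.0798).

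Of 19 targets of TAL1 and GATA2, 3 were higher in metastasis IgG than in healthy IgG and 0 lower, with a median of 0.04. They were Nr2f2, given above, Emcn, a sialomucin of capillaries and veins, at 0.43 ± 0.11 (limma adjusted p = 0.0476), and Angpt2, the TIE2 ligand released by activated ECs, at 0.34 ± 0.08 (adjusted p = 0.0449). Emcn and Angpt2 were not called once any 1 array was left out, with adjusted p up to 0.154 and 0.148. In metastasis B20, Nr2f2 and Emcn were called higher than in healthy IgG, Emcn by 0.50 ± 0.10 (adjusted p = 0.0212, held with an array left out only without healthy IgG replicate 1). Emcn is also on the endothelial marker list.

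FOXO1 targets moved in both directions. Of 27, 3 were higher and 4 lower in metastasis IgG than in healthy IgG, with a median of -0.03. Bnip3, a mitophagy receptor that is also a hypoxia target, had means of 12.16 in metastasis B20, 12.33 in metastasis IgG and 11.40 in healthy IgG ECs, and rose by 0.93 ± 0.10 in metastasis IgG (limma adjusted p = 0.00119) and by 0.76 ± 0.11 in metastasis B20 (adjusted p = 0.00747). Spry2, an inhibitor of growth factor signaling, fell by 0.50 ± 0.12 in metastasis IgG (limma adjusted p = 0.0452) and Trib1, a pseudokinase, rose by 0.47 ± 0.09 (adjusted p = 0.021). The remaining calls were Angpt2 among the higher and Bcl2l11, Sesn1 and Ccng2, genes of apoptosis, stress response and cell cycle exit, among the lower ones. The count of 7 was 1 to 2 when an array was left out and 2 with the replicate number as a block, and Bnip3 was the gene called in each of these fits. In metastasis B20 against healthy IgG, Bnip3 was the one target of 27 called. Of 15 measured regulators of FOXO1, Skp2, the F-box protein that marks FOXO1 for degradation, rose by 0.44 ± 0.10 in metastasis IgG (limma adjusted p = 0.0377), a call absent from each fit with an array left out. Ep300, the acetyltransferase, had means of 8.32 in metastasis B20, 7.87 in metastasis IgG and 7.85 in healthy IgG ECs. Its difference between metastasis B20 and healthy IgG passed, at 0.47 ± 0.09 (adjusted p = 0.0211), and held in 3 of 6 fits with an array left out, those without healthy IgG replicate 3 or B20 replicate 2 or 3. Between metastasis B20 and metastasis IgG it was 0.45 with an unadjusted p of 0.00105 and an adjusted p of 0.446.

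Among 17 FOXF1 targets and associated genes, Ntrk2 and Fendrr were called. Ntrk2, which encodes the neurotrophin receptor TrkB, had means of 12.23 in metastasis B20, 12.60 in metastasis IgG and 10.29 in healthy IgG ECs. It rose by 2.30 ± 0.18 in metastasis IgG (limma adjusted p = 0.000332) and by 1.94 ± 0.22 in metastasis B20 (adjusted p = 0.0019), and its other probe sets gave 0.25 to 2.58 in metastasis IgG. Both calls held in 6 of 6 fits with an array left out. Between metastasis B20 and metastasis IgG, limma called 0 genes of these lists. At an unadjusted p under 0.05 there were 3 of 13 ETS relatives, 3 of 19 SOX, GATA and FOX relatives, 0 of 10 TAL1 partners and 1 of 29 other endothelial factors. Among targets and regulators there were 2 of 25 ETS targets, 1 of 17 SOXF targets, 1 of 19 TAL1 and GATA2 targets, 4 of 27 FOXO1 targets, 2 of 15 FOXO1 regulators and 0 of 17 FOXF1 targets, and over the array 7.63% of probe sets. The smallest p among the relatives was 0.00546, that of Etv5 at -0.36 (limma adjusted p = 0.5).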

How the data were processed

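Values had been background-corrected, normalized and summarised by the authors with RMA in Chipster. The deposited table holds log2 intensities for 45101 probe sets and 9 arrays, between 5.38 and 14.8, without detection calls, and was used as it is. Genes were named from the platform annotation, in which 9211 probe sets had no gene and 932 had several. Leaving out these and control probe sets kept 34945 probe sets of 18193 genes.

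For each comparison, lmFit and eBayes of limma (version 3.58.1, R 4.3.3) were run on the 6 arrays concerned without a block, and p-values were adjusted over all 34945 probe sets. The labels name the arrays biological replicates. The p-values set a difference against the spread within the groups of 3 such samples, which eBayes moderates over all probe sets. The script was tested on simulated data.

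All probe sets of the 10 members were described, and from each list up to 3 called genes of largest change in a comparison, or the gene of smallest p. Lmo2, Lyl1, Foxc1 and the remaining FOXO1 target calls were named outside this rule, after their values were seen. Members and lists were chosen with earlier results of these data known. Of 325 list entries, 311 were matched. Alternatives changed the arrays fitted, the block, the probe sets kept, centring, quantile normalization, variance settings, array weights and the threshold, and left out each array. The planned filter at 5 log2 units removed nothing, and a filter at 8 was added after seeing the data. Figures were drawn with Python 3.11.15, matplotlib 3.10.9 and pandas 2.3.3.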

Additional observations from a re-analysis of the deposited data

How the results depend on the processing

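With 3 arrays a group, single factors could differ by as much as their intervals allow without a call. Same-numbered arrays of different groups had deviations correlated at -0.0739 to 0.0371, and the highest correlation with another number was -0.00905 to 0.147. With 3 arrays a group, these values cannot decide whether replicate numbers paired the arrays. With the replicate number as a block the member count in metastasis IgG against healthy IgG, 1 in the fit reported, was 0, and over all probe sets it was 1764 in place of 2591. The member count was also 0 with all probe sets of the table, with 1 probe set per gene, without probe sets with shared probes, with each gene's probe sets averaged and in all 6 fits with an array left out (0 to 0). It was 2 with the filter at 8, beside 2843 of 21581 probe sets, and 2 with trend and robust settings (Sox17 and Gata2, in place of Sox7). At an adjusted p under 0.25 with an unadjusted p under 0.05 in limma it was 5, beside 7650 of 34945 probe sets (21.9%). The study used these p cutoffs for its secreted genes together with a cutoff on fold change, which was not applied here. In metastasis B20 against healthy IgG, where the member count was 0, it was 1 with the filter at 8, beside 2243 of 21581 probe sets. It was 2 with trend and robust settings (Sox17 and Gata2) and 0 to 1 with an array left out. At the same p cutoffs it was 4, beside 7060 of 34945 probe sets (20.2%). It was 0 under all alternatives in metastasis B20 against metastasis IgG. Over all probe sets, leaving out an array gave 1326 to 2231 calls in metastasis IgG and 928 to 1752 in metastasis B20 against healthy IgG, and trend and robust settings gave 3567 and 2966. Called genes of the lists in metastasis IgG against healthy IgG were also counted under the alternatives other than arrays left out and those p cutoffs. They ranged from 0 to 3 for TAL1 partners, 1 to 6 for ETS targets and 0 to 4 for SOXF targets. For TAL1 and GATA2 targets they ranged from 1 to 6, and for FOXO1 targets from 2 to 8. The causes were not tested.

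Signs turned for the following differences, none of which was called in the fits where they turned. Array weights gave -8.48e-06 for Sox17 1429177_x_at in metastasis IgG against healthy IgG. In metastasis B20 against metastasis IgG they gave -0.0600 for Erg 1425370_a_at and 0.00822 for Sox17 1429177_x_at, which averaging the Sox17 probe sets put at 0.0362. With an array left out, metastasis IgG against healthy IgG ranged from -0.0526 to 0.134 for Ets1 1422027_a_at, -0.0171 to 0.0226 for Sox17 1429177_x_at and -0.0570 to 0.0257 for Foxo1 1416983_s_at. Metastasis B20 against metastasis IgG ranged from -0.176 to 0.198 for Erg 1425370_a_at, -0.322 to 0.00906 for Fli1 1422024_at, -0.106 to 0.0277 for Ets1 1452163_at and -0.104 to 0.107 for Ets1 1422027_a_at. It ranged from -0.0653 to 0.0949 for Sox7 1416564_at, -0.0163 to 0.0233 for Sox17 1429177_x_at, -0.0260 to 0.195 for Sox17 1421657_a_at, -0.116 to 0.0130 for Foxo1 1456529_at and -0.0214 to 0.141 for Foxf1 1434939_at. Metastasis B20 against healthy IgG ranged from -0.0657 to 0.145 for Ets1 1422027_a_at, -0.00321 to 0.0122 for Sox17 1429177_x_at, -0.0135 to 0.0732 for Foxo1 1416981_at and -0.00194 to 0.164 for Foxo1 1416983_s_at.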
